A study of Mus musculus with 29 samples.

Results

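MHC class I antigen presentation was followed here through 10 genes of 24770 symbols in the count table, the class I heavy chains H2-K1 and H2-D1, their light chain B2m, the peptide transporter subunits Tap1 and Tap2, the loading chaperone Tapbp (tapasin), the inducible proteasome subunits Psmb8, Psmb9 and Psmb10, and Nlrc5, the transcriptional activator of class I genes. They were chosen by symbol, and all 10 were found and passed the filter on low counts in every comparison. The libraries came from young adult male wild-type C57BL/6J mice that were fed freely and kept sedentary (control), placed on calorie restriction (CR), trained by treadmill running with free feeding (EX), or given both (CREX). Brown adipose tissue (BAT) was sequenced from 3 control, 4 CR, 4 EX and 4 CREX mice, and gastrocnemius muscle (SkM) from 4 control, 3 CR, 4 EX and 3 CREX mice, and all mice were fasted before tissue collection. The labels number the samples without naming the mice, so p-values measure only the spread between these libraries, which may be technical.

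Class I molecules show peptides from inside the cell to CD8 T cells. The proteasome cuts proteins into peptides, TAP carries the peptides into the endoplasmic reticulum, and tapasin helps to load them onto a heavy chain bound to beta-2-microglobulin. Interferon-gamma raises most of these genes through factors that include IRF1 and NLRC5, and it exchanges the constitutive catalytic proteasome subunits Psmb6, Psmb7 and Psmb5 for Psmb9, Psmb10 and Psmb8. Nearly every nucleated cell type carries class I, with a high level on leukocytes and endothelial cells and a low level on mature muscle fibres.

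Of the 10 genes, 7 lie in the major histocompatibility complex on mouse chromosome 17 within 1.35 Mb (GRCm38, the build of the authors' alignment). Tapbp lies at chr17:33919478-33929290, H2-K1 at chr17:33996012-34000619, and H2-D1 at chr17:35263094-35267497. Psmb9 at chr17:34182030-34187330, Tap1 at chr17:34187556-34197225, Psmb8 at chr17:34198195-34201454 and Tap2 at chr17:34204479-34216321 are neighbours. B2m at chr2:122147687-122153082, Nlrc5 at chr8:94434335-94527272 and Psmb10 at chr8:105935728-105938392 lie elsewhere.

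Promoter sequence is shown for the light chain and, as short stretches, for the heavy chains and neighbours whose results are set against it below. The 249 bases shown for B2m (chr2:122147437-122147685, plus strand) end just before its outermost annotated start. For H2-K1 (chr17:34000439-34000468, minus strand), H2-D1 (chr17:35262913-35262942, plus strand) and Psmb8 (chr17:34198087-34198116, plus strand) 30 bases around 1 match are shown. The H2-K1 stretch lies before 1 of its RefSeq starts but inside the gene span given above, so downstream of its outermost start. Tap1 and Psmb9 are transcribed away from each other from RefSeq starts separated by 225 bases, and the 30 bases next to the Psmb9 start are shown (chr17:34187331-34187360, plus strand). All come from RefSeq on GRCm38 and run in the direction of transcription of the gene, or of Tap1 for the shared stretch. Capitals mark matches on either strand to an interferon-stimulated response element (ISRE, GAAANNGAAA), a gamma-activated site (GAS, TTCNNNGAA), the NF-kB consensus or the CCAAT box, and in both heavy chain genes the NF-kB match on 1 strand overlaps that on the other.
B2m: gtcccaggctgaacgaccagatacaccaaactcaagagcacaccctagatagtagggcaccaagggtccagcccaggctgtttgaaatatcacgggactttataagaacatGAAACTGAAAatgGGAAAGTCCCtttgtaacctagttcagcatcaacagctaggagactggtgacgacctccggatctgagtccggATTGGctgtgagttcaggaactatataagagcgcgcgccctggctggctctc
H2-K1: gcccagggctGGGGATTCCCCatctccaca
H2-D1: gcccagggctGGGGATTCCCCatctcctca
Psmb8: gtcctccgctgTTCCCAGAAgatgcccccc
Psmb9-Tap1: tttCCAATcagcggctgcgcgcggtgcagg

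RefSeq promoter windows were matched for 8 of the 10 genes (not for Tap2 and Nlrc5), with 9 windows in all because H2-K1 has an additional start. Over windows reaching 250 bases before to 50 after a start, an ISRE match was held by B2m and by 3.44% of all 32851 windows, and a GAS match by Psmb8 and 8.3% of all. B2m, H2-D1 and H2-K1 held an NF-kB match, as did 8.46% of all windows. CCAAT matches stood in 6 of the 8 genes and in 37.4% of all windows. In B2m the ISRE spans positions -139 to -130, the NF-kB match -126 to -117 and the CCAAT box -53 to -49 from the start. A match is a description of the letters and was not tested as a binding site.

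BAT held more of every member than SkM did. In sedentary, freely fed mice all 10 members were DEGs (differentially expressed genes, with a fold change above 1.5 and an adjusted p under 0.05 by edgeR's quasi-likelihood test) with the higher level in BAT, against 29.8% of the 13797 genes tested. The log2 difference ran from 0.73 (SE 0.14) for Psmb10 to 1.93 (SE 0.09) for H2-D1, with a median of 1.60. The constitutive subunits did not share this direction, since Psmb6 stood 0.57 lower in BAT on the log2 scale (SE 0.15, adjusted p = 0.00466), Psmb7 0.36 lower (SE 0.13, adjusted p = 0.0241) and Psmb5 differed by -0.03 (adjusted p = 0.840).

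Per kilobase of transcript (RPKM), the order of mean levels in the BAT controls was B2m, H2-D1, H2-K1, Tapbp, Psmb10, Tap2, Psmb8, Psmb9, Tap1 and Nlrc5. B2m stood at 399 ± 18.1 RPKM (SD, n = 3), H2-D1 at 119 ± 5.54, H2-K1 at 106 ± 9.09 and Tapbp at 19.2 ± 1.11. Psmb10 (9.25 ± 0.739) and Tap2 (8.34 ± 0.705) lay within about their spread of each other, as did Psmb9 (3.93 ± 0.704) and Tap1 (3.76 ± 0.570), while Nlrc5 was lowest at 0.772 ± 0.0891 RPKM. In the SkM controls B2m stood at 121 ± 17.6 RPKM (SD, n = 4), H2-D1 at 25.8 ± 1.69, H2-K1 at 23.6 ± 2.92 and Tapbp at 6.58 ± 0.232. The lowest there were Tap1 at 1.04 ± 0.107, Psmb9 at 1.04 ± 0.381 and Nlrc5 at 0.173 ± 0.0224 RPKM, and Tap1 and Psmb9 could not be ordered. Constitutive subunits were far more abundant than the inducible ones, with Psmb5 at 70.7 ± 3.93 RPKM against 5.81 ± 0.570 for Psmb8 in the BAT controls.

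The libraries held 21047242 to 24919377 counts in BAT and 23050918 to 23425284 in SkM, where 3 counts stand for 0.120 to 0.143 and 0.128 to 0.130 CPM (counts scaled to a library of 1e6 counts). The 7 brown adipocyte markers summed to 13627 to 15353 CPM in BAT control and 145 to 216 CPM in SkM control libraries. Fabp4 was the most abundant of them in both tissues, and the muscle fibre marker Myh4 reached 18193 to 48990 CPM in SkM. BAT libraries also carried muscle fibre RNA, whose 8 markers summed to 4.41 to 582 CPM in control, 18.5 to 1214 in CR, 8.10 to 3537 in EX and 876 to 5404 in CREX libraries. BAT EX replicate 3 stood apart with summed macrophage markers at 145 CPM and fibroblast markers at 522 CPM. Among 39 pairs of libraries within a group, SkM CREX replicate 1 differed most from its group, replicates 2 and 3. The chi-square of their counts over its degrees of freedom was 117 and 109, against 31.9 between replicates 2 and 3.

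**Figure D1:**
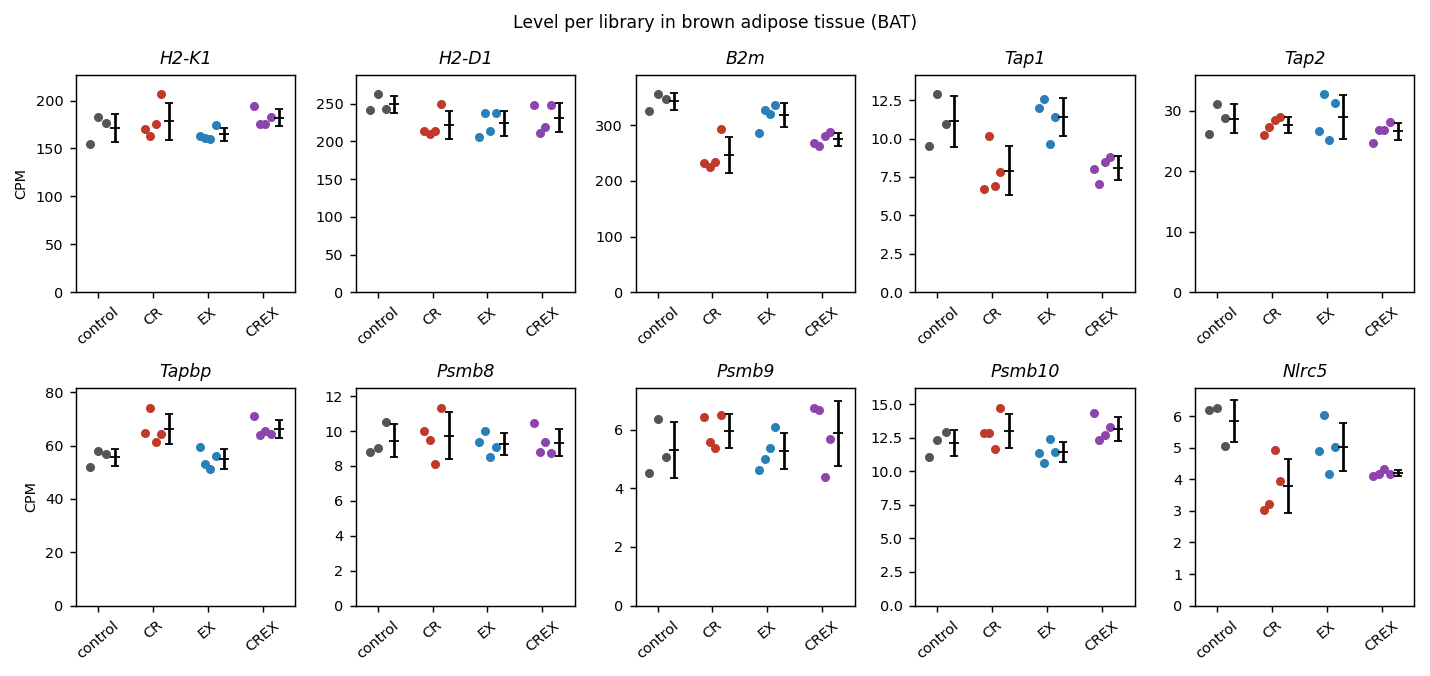
CPM (scaled within BAT) of the 10 genes in each BAT library by group, with a dash and bar for the mean and SD (3 control, 4 CR, 4 EX and 4 CREX libraries). B2m lies at 224 to 294 CPM in CR against 326 to 356 in control, Tapbp at 61.4 to 74.3 against 52.0 to 58.0.

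In BAT, the members that changed with calorie restriction went in both directions, and their share was close to that over all genes. Averaged over sedentary and trained mice, B2m, Tap1 and Nlrc5 fell and Tapbp rose, while the heavy chains, Tap2 and the inducible proteasome subunits did not pass the test. The share of members that fell was 3 of 10, against 17.5% of the 13922 genes tested, and 1 of 10 rose against 15.9%. In either direction 4 of 10 passed, against 33.4% of all genes. None of the 4 changes reached the fold of 1.5 that the DEG rule asks for, so 0 of 10 members were DEGs where 7.83% of genes were lower DEGs, also with DESeq2. An edgeR unadjusted p under 0.05 was held by 5 of 10 members, a share close to the 43.8% over all genes tested. The median member moved by -0.02 on the log2 scale, against -0.00 for all genes tested.

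The light chain gene B2m, whose product classical heavy chains need for a normal level at the cell surface, read 326, 356 and 347 CPM in the control libraries and 233, 224, 234 and 294 CPM under CR. In trained mice it read 287, 328, 321 and 337 CPM without restriction and 269, 263, 281 and 289 CPM with it. All restricted sedentary libraries lay below all controls, and in trained mice the highest CREX library was just above the lowest EX library. The log2 fold change was -0.48 (SE 0.09, adjusted p = 0.00574) for CR against control, -0.21 (SE 0.07, adjusted p = 0.0926) for CREX against EX, and -0.35 (SE 0.06, adjusted p = 3.93e-04) on average.

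Tap1, which pairs with Tap2 to form the ATP-driven peptide transporter, read 9.53, 12.9 and 10.9 CPM in control and 6.73, 10.2, 6.92 and 7.82 CPM in CR libraries. In trained mice Tap1 read 12.0, 12.6, 9.68 and 11.4 CPM in EX and 8.02, 7.05, 8.50 and 8.80 CPM in CREX. CREX libraries lay wholly below EX libraries, whereas CR and control overlapped through CR replicate 2. Its averaged log2 fold change was -0.50 (SE 0.10, adjusted p = 0.00166), with -0.49 (adjusted p = 0.0519) in sedentary and -0.50 (adjusted p = 0.0249) in trained mice. Its partner Tap2 gave -0.09 (SE 0.06, adjusted p = 0.257), with group means of 28.7 CPM in control, 27.7 in CR, 29.0 in EX and 26.6 in CREX. Psmb9, read from the other side of the same intergenic stretch, gave +0.16 (SE 0.11, adjusted p = 0.294) with 4.50 to 6.36 CPM in control and 5.36 to 6.49 CPM in CR libraries.

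Tapbp, which bridges class I and TAP, moved the other way. It read 52.0, 58.0 and 56.8 CPM in control and 64.9, 74.3, 61.4 and 64.5 CPM in CR, then 59.5, 53.0, 51.1 and 55.9 CPM in EX and 71.1, 64.1, 65.5 and 64.3 CPM in CREX. Restricted libraries lay above their unrestricted counterparts without overlap at either level of training. The averaged log2 fold change was 0.26 (SE 0.05, adjusted p = 0.00147), with 0.25 (adjusted p = 0.0526) in sedentary and 0.27 (adjusted p = 0.0409) in trained mice. Tapbp overlaps Zbtb22 on the same strand, and its expected count was whole in 5 of 29 libraries, while each of the other 9 genes had whole counts in all 29. Zbtb22 itself gave -0.60 in BAT (SE 0.15, adjusted p = 0.00799) and 0.10 in SkM (SE 0.09, adjusted p = 0.368), whose part in the Tapbp change was not tested.

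Nlrc5, which assembles with RFX and NF-Y factors at class I promoters, read 6.21, 6.28 and 5.07 CPM in control and 3.04, 3.22, 4.94 and 3.95 CPM in CR libraries. In trained mice it read 4.90, 6.04, 4.17 and 5.03 CPM in EX and 4.11, 4.17, 4.33 and 4.18 CPM in CREX. CR lay below control without overlap, and CREX overlapped EX at its lower end. The log2 fold change was -0.62 (SE 0.18, adjusted p = 0.0334) for CR, -0.27 (SE 0.13, adjusted p = 0.245) for CREX against EX and -0.45 (SE 0.11, adjusted p = 0.00663) on average. The decrease with CR alone made Nlrc5 the only member that was a DEG in BAT, 1 of 10 against 6.86% of genes that were lower DEGs.

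By adjusted p alone, CR against control lowered 2 of 10 members (B2m and Nlrc5) against 10.9% of 13323 genes and raised 0 of 10 against 9.99%. In either direction edgeR's unadjusted p was under 0.05 for 4 of 10 members, close to the 35.8% over all genes. CREX against EX lowered 1 of 10 (Tap1, background 4.3% of 13251 genes tested) and raised 1 (Tapbp, background 3.71%). There 0 members were DEGs by edgeR or DESeq2 (background 2.63% lower), and 4 of 10 had an edgeR unadjusted p under 0.05, against 25.6% of all genes. These single-training calls rested on few libraries. Nlrc5 lost its call in CR against control when CR replicate 1, 2 or 4 or control replicate 1 or 2 was left out, with log2 fold changes of -0.54 to -0.65 and adjusted p from 0.0624 to 0.115. Tapbp lost its call in CREX against EX without any of CREX replicates 1 to 4 or EX replicates 2 to 4 (0.24 to 0.29, adjusted p from 0.0627 to 0.108), and Tap1 without CREX replicate 1 or 2 or EX replicate 1 or 2 (-0.43 to -0.48, adjusted p from 0.0557 to 0.0729). Without the 3 BAT libraries richest in muscle RNA, both lost it as well, Tapbp at 0.21 (adjusted p = 0.252) and Tap1 at -0.55 (adjusted p = 0.0769). The averaged changes of B2m, Tap1, Tapbp and Nlrc5 stayed past the threshold in all 22 alternatives, including the fit without those 3 libraries.

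The heavy chains did not pass the test in BAT, unlike their light chain. H2-K1 gave an averaged log2 fold change of 0.10 (SE 0.05, adjusted p = 0.179) and H2-D1 one of -0.06 (SE 0.06, adjusted p = 0.406). For H2-K1 the CREX libraries lay wholly above the EX libraries, at 0.14 (edgeR adjusted p = 0.199). The count ratio of H2-K1 to B2m, a measure chosen after the values had been seen and given without a test, was 0.476 to 0.515 in control and 0.703 to 0.750 in CR libraries, and 0.492 to 0.568 in EX and 0.624 to 0.724 in CREX. For H2-D1 to B2m the ratio was 0.701 to 0.741 in control, 0.851 to 0.934 in CR, 0.668 to 0.725 in EX and 0.779 to 0.925 in CREX. Restricted libraries lay above unrestricted ones in both ratios at each level of training. SkM showed the same order for H2-K1 to B2m, with 0.353 to 0.395 in control, 0.462 to 0.556 in CR, 0.385 to 0.438 in EX and 0.490 to 0.572 in CREX. H2-K1 and H2-D1 resemble each other and the Q genes in sequence, and their expected counts were exactly whole in all 29 libraries, against 25 for H2-Q6 and 24 for H2-Q7.

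**Figure D2:**
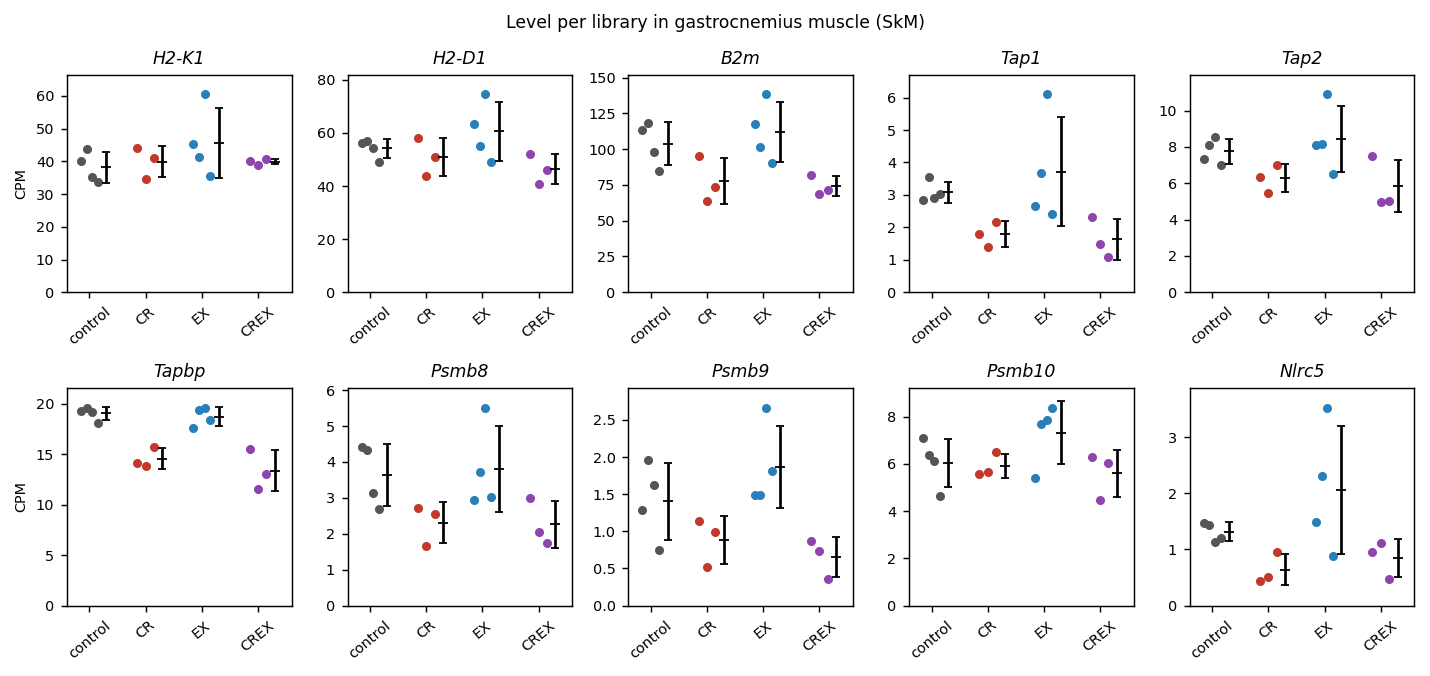
CPM (scaled within SkM) of the 10 genes in each SkM library by group, with a dash and bar for the mean and SD (4 control, 3 CR, 4 EX and 3 CREX libraries). Tapbp lies at 13.8 to 15.8 CPM in CR against 18.1 to 19.6 in control, and EX replicate 3 is the highest library for 8 genes, at 138 CPM for B2m.

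In SkM the direction was shared. Averaged over training, Tapbp, Tap1, B2m, Psmb9, Nlrc5, Psmb8 and Tap2 fell with calorie restriction, and all 10 log2 fold changes were negative. By adjusted p 7 of 10 members fell, against 17% of 13610 genes, and 4 of 10 (Tap1, Psmb8, Psmb9 and Nlrc5) were lower DEGs, against 8.13%. The median member moved by -0.47 on the log2 scale, against 0.00 for all genes tested. All 7 stayed past the threshold in each of their 18 or 19 alternatives, with each library left out in turn among them.

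Tapbp, with the least spread, read 19.3, 19.6, 19.2 and 18.1 CPM in control and 14.1, 13.8 and 15.8 CPM in CR, then 17.6, 19.4, 19.6 and 18.4 CPM in EX and 15.6, 11.5 and 13.1 CPM in CREX. Restricted libraries lay below unrestricted ones without overlap at each level of training, the reverse of BAT. The averaged log2 fold change was -0.43 (SE 0.07, adjusted p = 3.90e-04). Tap1 read 2.85, 3.54, 2.90 and 3.04 CPM in control and 1.80, 1.38 and 2.18 CPM in CR, then 2.67, 3.66, 6.10 and 2.42 CPM in EX and 2.33, 1.48 and 1.07 CPM in CREX. Its groups did not overlap either, and it gave -0.99 (SE 0.22, adjusted p = 0.00334). Tap2 gave -0.42 (SE 0.12, adjusted p = 0.0178), with means of 7.75 CPM in control, 6.27 in CR, 8.41 in EX and 5.83 in CREX.

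Of the 3 inducible proteasome subunits, Psmb8 and Psmb9 fell and Psmb10 did not pass the test. Psmb9, the inducible counterpart of Psmb6, read 1.29, 1.95, 1.63 and 0.749 CPM in control, 1.14, 0.514 and 0.993 CPM in CR, 1.49, 1.49, 2.67 and 1.82 CPM in EX and 0.874, 0.739 and 0.357 CPM in CREX. CREX lay wholly below EX, while CR and control overlapped, and only 9 to 59 counts per library lay behind these values. Psmb9 gave an averaged log2 fold change of -1.09 (SE 0.27, adjusted p = 0.00662), and Psmb8, the counterpart of Psmb5, gave -0.70 (SE 0.19, adjusted p = 0.0117) with means of 3.64 CPM in control, 2.31 in CR, 3.80 in EX and 2.26 in CREX. Psmb10, the counterpart of Psmb7, gave -0.21 (SE 0.13, adjusted p = 0.207).

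B2m read 114, 118, 98.1 and 85.0 CPM in control, 95.3, 63.5 and 73.8 CPM in CR, 118, 101, 138 and 90.3 CPM in EX and 82.0, 68.8 and 71.1 CPM in CREX, so that only the trained groups were apart. It gave -0.51 on average (SE 0.12, adjusted p = 0.00455). The heavy chains gave smaller values that did not pass, -0.24 for H2-D1 (SE 0.10, adjusted p = 0.0785) and -0.06 for H2-K1 (SE 0.11, adjusted p = 0.698). Nlrc5 read 1.47, 1.44, 1.13 and 1.21 CPM in control, 0.439, 0.514 and 0.955 CPM in CR, 1.49, 2.31, 3.52 and 0.885 CPM in EX and 0.957, 1.11 and 0.476 CPM in CREX, with 10 to 78 counts per library. CR lay below control, CREX overlapped EX, and the averaged change was -1.15 (SE 0.30, adjusted p = 0.00852).

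Within one level of training the SkM calls were fewer. CR against control made Tap1 (-0.78, SE 0.20, adjusted p = 0.0266) and Nlrc5 (-1.02, SE 0.30, adjusted p = 0.0481) DEGs, 2 of 10 against 5.32% of 13173 genes, and with Tapbp 3 of 10 fell by adjusted p against 7.67%. CREX against EX made B2m (-0.60, SE 0.15, adjusted p = 0.0332) and Psmb9 (-1.51, SE 0.36, adjusted p = 0.0256) DEGs, 2 of 10 against 5.17% of 13112 genes, and with Tapbp 3 of 10 fell against 6.96%. The member medians were -0.40 and -0.56 on the log2 scale. Both counts depended on single libraries, as did the calls over all genes. For CR against control the count of DEGs among the members was 1 without control replicate 1 and 0 without CR replicate 2 or control replicate 2, 3 or 4. For CREX against EX it was 6 without CREX replicate 1, 1 without EX replicate 4, and 0 without CREX replicate 2 or 3 or EX replicate 1, 2 or 3. DEGs over all genes were 1163 of 13112 with every library in that comparison. They were 2570 of 13328 without CREX replicate 1 and 343 of 13350 without CREX replicate 2. For CR against control they were 1264 of 13173 with every library and 928 of 13085 without control replicate 2. DESeq2 called 4 members in CREX against EX, and 1512 of 13112 genes.

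**Figure D3:**
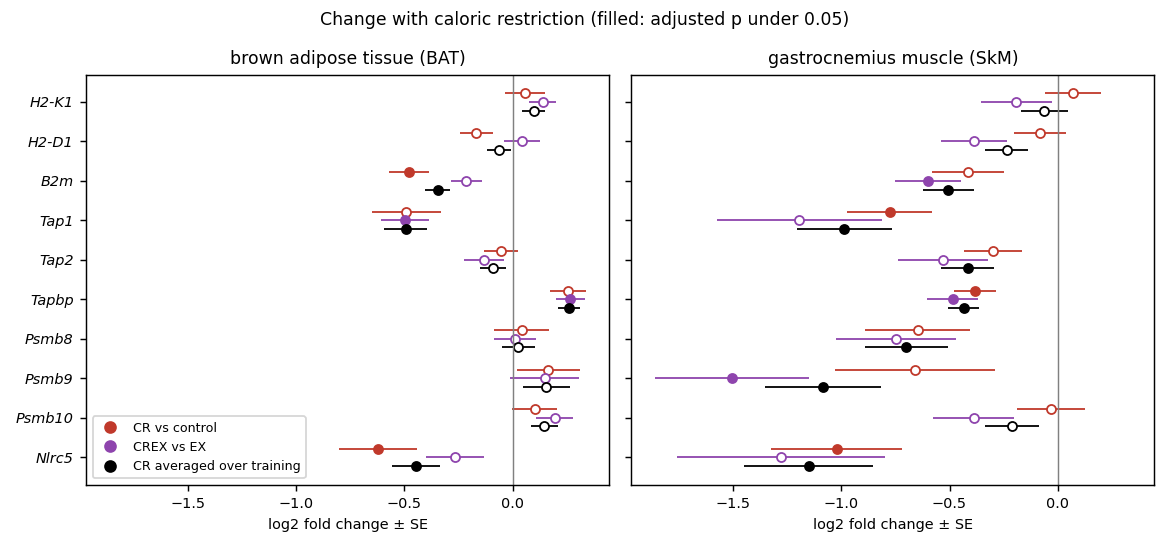
Log2 fold change with calorie restriction of each member in BAT (left) and SkM (right), for sedentary mice (CR against control), trained mice (CREX against EX) and their average, with bars of 1 SE and filled points for an adjusted p under 0.05. In BAT the averages run from -0.50 for Tap1 to 0.26 for Tapbp, in SkM from -1.15 for Nlrc5 to -0.06 for H2-K1.

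The difference between tissues was tested in 1 fit over all 8 groups. Tapbp, Psmb8 and Psmb9 responded differently in BAT and SkM, with averaged CR effects higher in BAT by 0.70 (SE 0.09, adjusted p = 3.30e-06), 0.73 (SE 0.20, adjusted p = 0.0102) and 1.24 (SE 0.27, adjusted p = 0.00202) on the log2 scale. This was 3 of 10 members, against 10.1% of 14865 genes with a higher effect in BAT. For B2m the difference was 0.16 (SE 0.13, adjusted p = 0.426) and for Tap1 0.49 (SE 0.24, adjusted p = 0.145). All 10 differences were positive, and the remaining members had adjusted p-values between 0.0617 and 0.381. Without SkM CREX replicate 1 the count was 6, with 3624 of 15187 genes called in either direction. Without SkM EX replicate 4 it was 5, with 2846 of 14843 genes. With every library 3048 of 14865 genes were called in either direction.

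Treadmill training moved no member past the threshold in either tissue. The paper describes this training as low in intensity, with tissue taken the day after the last bout, so the result covers that setting only. EX against control called 0 of 10 members in BAT and in SkM (background 0% and 0.093%), CREX against CR 0 of 10 (background 0.00763% and 0%), and the effect of EX averaged over diet 0 of 10 (background 0.0215% and 0.0294%), with edgeR. No member had an unadjusted p under 0.05 in any of these, and DESeq2 also called 0. Groups could lie apart without a call, since H2-D1 in BAT read 206 to 238 CPM in EX and 241 to 263 CPM in control. Its log2 fold change was -0.14 (edgeR adjusted p = 0.721). How many of all genes had groups without overlap was not counted. In SkM, Nlrc5 gave 0.64 for EX against control (SE 0.34, unadjusted p above the threshold), and EX replicate 3 had the highest level of Nlrc5, Tap1, Psmb8 and B2m among all SkM libraries. The interaction of CR and EX called 0 of 10 in both tissues (background 0% in each), also with DESeq2. B2m in BAT was the 1 member with an unadjusted p under 0.05 for it (5.75% of all genes), at 0.27 (SE 0.12, edgeR adjusted p = 0.855), and the SkM interaction gave 0 such members. Without SkM CREX replicate 1, 200 of 13905 genes in SkM were DEGs for EX averaged over diet. For the SkM interaction 182 of 13905 passed by adjusted p in that fit. Members called stayed at 0 of 10 in both.

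Dividing each inducible subunit by the constitutive subunit it replaces removes the scaling of the library. In SkM the log2 count ratio of Psmb9 to Psmb6 was -5.84 ± 0.492 in control (SD, n = 4), -6.74 ± 0.447 in CR (n = 3), -5.38 ± 0.327 in EX (n = 4) and -7.15 ± 0.885 in CREX (n = 3). Restriction lowered it by an average of 1.34 (change -1.34; exact two-sided permutation of diet within training, p = 8.16e-04, the smallest possible, adjusted over the 6 ratios to 0.00490). Psmb8 to Psmb5 changed by -0.70 (exact permutation p = 0.00898, adjusted 0.0269), from -3.90 ± 0.201 in control to -4.66 ± 0.234 in CR and from -4.02 ± 0.488 in EX to -4.65 ± 0.636 in CREX. Psmb10 to Psmb7 changed by -0.34 (exact permutation p = 0.0612, adjusted 0.122).

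The BAT ratios did not pass. Psmb8 to Psmb5 changed by -0.14 (exact permutation p = 0.316, adjusted 0.474), Psmb9 to Psmb6 by -0.03 (exact permutation p = 0.778, adjusted 0.882) and Psmb10 to Psmb7 by -0.01 (exact permutation p = 0.882, adjusted 0.882). Among the constitutive genes in BAT, Psmb6 rose by 0.19 (SE 0.06, adjusted p = 0.0203) while Psmb5 gave 0.17 (adjusted p = 0.157) and Psmb7 0.16 (adjusted p = 0.0592). None of the 3 passed in SkM, with 0.01 to 0.23. For Psmb8 to Psmb5 in SkM, leaving out control replicate 1 or 2, CREX replicate 2 or 3 or EX replicate 2 or 3 brought the adjusted p to between 0.0514 and 0.103, with changes of -0.55 to -0.69.

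**Figure D4:**
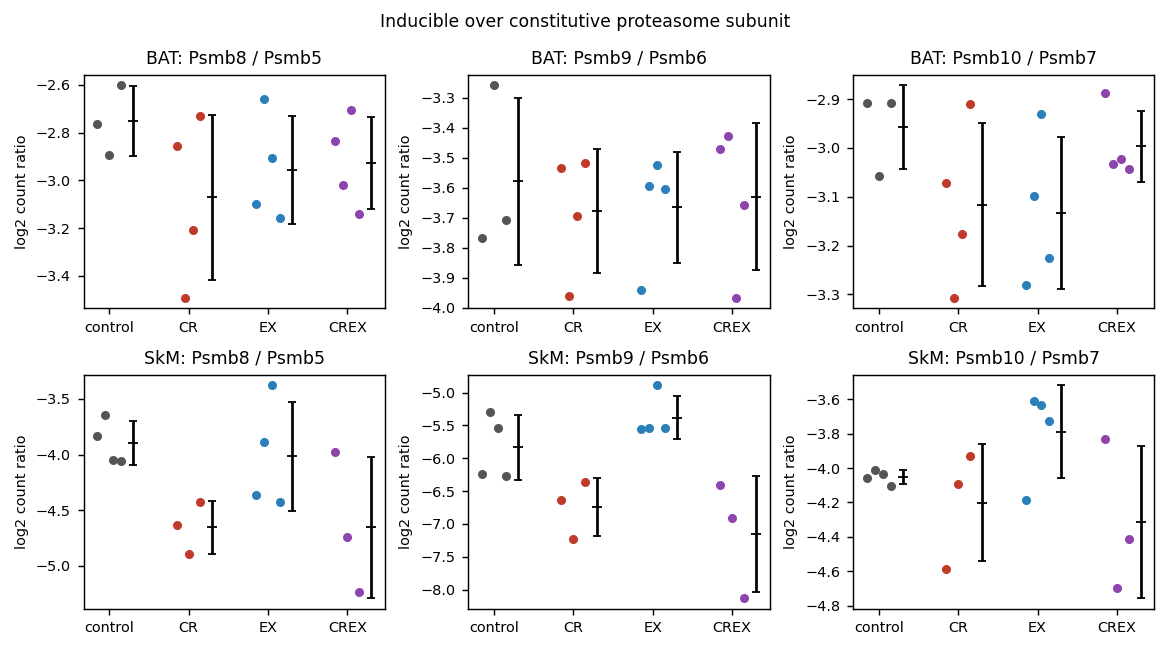
Log2 ratio of the counts of each inducible proteasome subunit to the constitutive subunit it replaces in each library, with the mean and SD per group, in BAT (top) and SkM (bottom). In SkM the Psmb9 to Psmb6 ratio averages -6.74 in CR against -5.84 in control and -7.15 in CREX against -5.38 in EX.

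Other genes of class I and neighbouring pathways were counted for the averaged CR effect, by which 15.9% of all genes tested rose and 17.5% fell in BAT, and 16.5% rose and 17% fell in SkM. Among 13 further class I genes tested in BAT, 4 fell and 0 rose, led by H2-Q6 (-2.03, SE 0.24, adjusted p = 2.52e-05), H2-Q4 (-1.05, SE 0.13) and H2-Q7 (-1.36, SE 0.24). In SkM 6 of 13 fell and 1 rose, with H2-Q4 at -0.91 (SE 0.17) and H2-Q6 at -1.76 (SE 0.43). The one that rose, H2-Q10, a secreted class I molecule, read 0.114 ± 0.0615 CPM in SkM control (n = 4), 3.28 ± 2.22 in CR (n = 3), 0.147 ± 0.207 in EX (n = 4) and 1.31 ± 1.93 in CREX (n = 3). H2-Q10 stood at 123 ± 21.1 CPM in BAT control, and the adipocyte gene Adipoq in SkM read 0.789 ± 0.749 CPM in control, 8.06 ± 6.47 in CR, 3.35 ± 6.27 in EX and 6.38 ± 7.41 in CREX, whose part in the H2-Q10 change was not tested. H2-Q6 and H2-Q7 are near-identical copies whose reads could be exchanged.

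Among genes of peptide supply and loading in BAT, 2 of 11 genes rose, a share close to the 15.9% over all genes, and 0 fell. They were Psme1 (0.24, SE 0.04, adjusted p = 3.82e-04), a subunit of the interferon-inducible PA28 activator of the proteasome, and the cytosolic peptidase Tpp2 (0.16, SE 0.06), while Psme2, the partner of Psme1, gave 0.10 (adjusted p = 0.101). In SkM Psme1 fell (-0.57, SE 0.11, adjusted p = 0.00104) with the thiol oxidoreductase Pdia3 (-0.40, SE 0.07), 1 gene rose, the aminopeptidase Lnpep (0.57, SE 0.19), and Psme2 gave -0.09 (adjusted p = 0.552). Of the 14 constitutive 20S genes, 5 rose in BAT, led by Psma6 (0.51, SE 0.07), Psmb4 (0.30, SE 0.05) and Psma7 (0.33, SE 0.07). In SkM 0 of 14 passed by edgeR, with 2 at an unadjusted p under 0.05, against 44.9% of all genes.

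Among 16 regulators in BAT, 3 rose and 5 fell, where 15.9% of all genes rose and 17.5% fell, so that the share rising was close to that over all genes. Rfx5, a subunit of the RFX complex that binds MHC promoters, fell by 0.63 on the log2 scale (SE 0.14), the NF-kB subunit Rela by 0.26 (SE 0.06) and Irf1, which binds ISREs, by 0.20 (SE 0.06, adjusted p = 0.0168), whereas the receptor chain Ifngr1 rose by 0.80 (SE 0.14, adjusted p = 0.00107). In SkM 2 of 16 rose against 16.5% of all genes and 4 fell against 17%, with Irf2 at -0.56 (SE 0.09), Irf1 at -0.43 (SE 0.12, adjusted p = 0.0138), the receptor chain Ifngr2 at -0.29 (SE 0.07) and the NF-kB subunit Nfkb1 at -0.24 (SE 0.06).

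Interferon-responsive lists went lower. Type I interferon-stimulated genes fell for 8 of 14 tested in BAT (median -0.45) and 9 of 14 in SkM (median -0.64), with Rtp4 at -0.69 (SE 0.12) in BAT and -1.07 (SE 0.18) in SkM. Bst2 gave -0.65 (SE 0.09) in BAT. Interferon-gamma GTPases and chemokines fell for 7 of 11 in BAT and 6 of 10 in SkM, including the chemokine Cxcl9 (-0.62, SE 0.08 in BAT, and -2.50, SE 0.32 in SkM) and the GTPase Gbp4 (-0.95, SE 0.14 and -1.43, SE 0.30). None rose in either tissue.

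Class II genes, which present extracellular peptides on professional antigen-presenting cells, fell for 9 of 9 tested in BAT (median -1.44) and 6 of 7 in SkM (median -1.87). In BAT the invariant chain Cd74 fell from 77.8 ± 6.69 CPM in control to 25.2 ± 1.96 in CR (-1.44 on average, SE 0.12), and Ciita, the class II activator related to Nlrc5, from 1.22 ± 0.0365 to 0.198 ± 0.0611 CPM (-2.29, SE 0.26, adjusted p = 1.50e-05). The median over all genes tested was -0.00 in BAT and 0.00 in SkM for the same contrast.

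**Figure D5:**
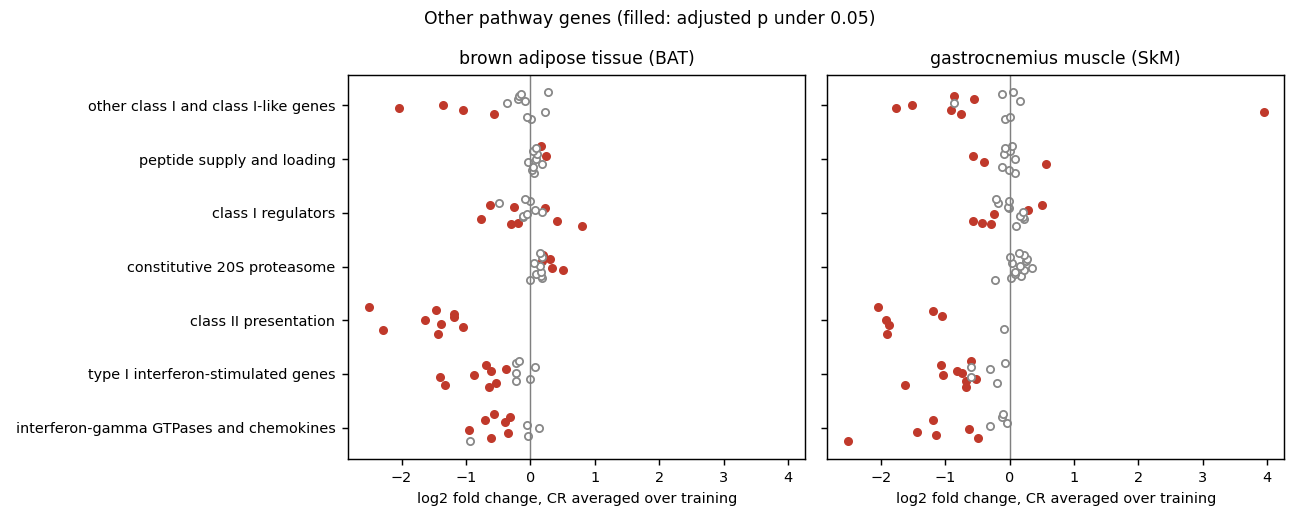
Log2 fold change with calorie restriction averaged over training for genes of 7 further lists in BAT (left) and SkM (right), 1 point per gene, filled for an adjusted p under 0.05. All 9 class II genes tested in BAT lie left of 0, and the point at 3.95 in SkM is H2-Q10.

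Several lists of markers of other cells also held genes that fell with calorie restriction. In BAT the 6 leukocyte markers summed to 16.3 to 17.7 CPM in control, 6.55 to 8.42 in CR, 15.2 to 24.3 in EX and 7.06 to 12.1 in CREX, and 6 of 6 fell by adjusted p. Laptm5 was the most abundant, the B cell markers summed to 1.40 to 2.13 CPM in control and 0.189 to 0.247 in CR with Ms4a1 at 0 in every CR library, and the endothelial markers to 371 to 411 in control and 267 to 338 in CR, of which 4 of 7 fell. The fibroblast markers, Dcn the most abundant, summed to 153 to 171 CPM in BAT control, 102 to 138 in CR, 163 to 522 in EX and 119 to 132 in CREX, and 3 of 3 fell. The 10 macrophage markers, Lyz2 the most abundant, summed to 85.5 to 90.4 CPM in BAT control, 50.8 to 77.5 in CR, 90.6 to 145 in EX and 56.0 to 108 in CREX, where 7 fell and 2 rose. In SkM the endothelial markers, Cdh5 the most abundant, summed to 273 to 337 CPM in control, 171 to 216 in CR, 268 to 337 in EX and 119 to 241 in CREX, and 7 of 7 fell, while 3 of 6 leukocyte and 0 of 10 macrophage markers did by edgeR (1 of the latter at an unadjusted p under 0.05). The dendritic cell markers, Clec9a the most abundant, summed to 1.16 to 1.56 CPM in SkM control, 0.351 to 0.593 in CR, 1.04 to 1.72 in EX and 0.582 to 1.19 in CREX, and 2 of the 2 tested fell (median -1.05), while 0 of 2 passed in BAT by edgeR, with 1 at an unadjusted p under 0.05. T and NK cell markers stood at 0 to 0.624 CPM in SkM, with Cd8a at 0 in every control, CR, EX and CREX library. In bulk tissue fewer cells of a type and less RNA per cell cannot be told apart, and the part of these cells in the members' changes was not tested.

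Likeness over libraries was described by Pearson's r between a gene's log2 CPM and the mean standardized log2 CPM of the 10 members, which share library and depth. Each member is part of that mean, which raises its own r, so members and outside genes cannot be compared by r. Over the 15 BAT libraries, H2-D1 followed the mean most closely among the members (r = 0.86) and Tapbp least (r = 0.08). Both ends of that order changed once group means were removed, with H2-K1 highest (0.89, against 0.86 for H2-D1) and Nlrc5 lowest (0.15, against 0.32 for Tapbp). The most alike of 11768 genes outside the lists were Erp29 (r = 0.77), an endoplasmic reticulum chaperone, Gm31814 (0.73), Cecr5 (0.71), Setd1a (0.71) and Wrap73 (0.71). Here and in SkM below, such genes are the highest of many values over few libraries, and none was tested. Over the 14 SkM libraries the members ran from 0.63 for Psmb10 to 0.96 for Psmb8, and the most alike of 11559 genes were Gja1 (0.89), Parp10 (0.89), Timeless (0.89), the interferon-inducible GTPase Tgtp2 (0.88) and Prps2 (0.87). With group means removed, Psmb10 stood at 0.46 and Psmb8 at 0.96. Outside the lists, Gja1 then stood at 0.76, Parp10 at 0.70, Timeless at 0.69, Tgtp2 at 0.72 and Prps2 at 0.74.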

How the data were processed

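BAT and SkM were sequenced as paired-end RNA-seq, 29 libraries in all. Per the labels' processing notes and the methods, the authors aligned trimmed reads to mm10 with STAR 2.7.10a and estimated counts with RSEM (1.2.28 in the notes, another version in the methods), and the deposited values are unnormalized expected counts per gene symbol. The annotation and the strandedness are not given in the sources used here. Several members overlap other genes (Tapbp with Zbtb22, Psmb8 and Tap2 with antisense Gm20496, Psmb10 with antisense Gm16156), whose reads cannot then be told apart. Counts were rounded and tested with edgeR 4.0.16 (R 4.3.3; TMM, filterByExpr, robust quasi-likelihood, Benjamini-Hochberg over all genes tested), either on the groups compared or, for averaged effects and interactions, on all groups. The study used DESeq2; thresholds for DEGs are those of the study. SE is the log2 fold change divided by the square root of F. RPKM used the longest principal transcript of GENCODE vM21. The test was tested on simulated data, and 39 library pairs were checked for repeated libraries (none found).

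Members and lists were chosen with earlier results of these data known. Named genes are the members, Psmb5, Psmb6, Psmb7, Ciita, Irf1, Psme1 and Psme2 (1 further regulator is not reported here), up to 3 genes per other list by p for the averaged CR effect, the most abundant marker of a list, and the 5 genes per tissue most like the members' mean; Zbtb22, Ms4a1, Cd8a and Adipoq were added after their values were seen. Alternatives were DESeq2 1.42.0, RLE size factors, other filters, no fold minimum, 1 fit over all groups, a muscle covariate, each library left out and a replicate block.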

Additional observations from a re-analysis of the deposited data

Results flagged for a closer look

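In BAT CR replicate 4, H2-D1 at 250 CPM stood above the other 3 CR libraries, at 210 to 214, and B2m at 294 CPM above 224 to 234, each by a gap larger than Dixon's 95% limit for 4 libraries. Of 50 groups of 4 tested, 2 were singled out, and chance gives about 1 in 20. The effect of calorie restriction differed between tissues for Psmb8 (0.73 higher in BAT on the log2 scale, edgeR adjusted p = 0.0102), Psmb9 (1.24, adjusted p = 0.00202) and Tapbp (0.70, adjusted p = 3.30e-06), tested on the difference itself.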

How the results depend on the processing

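Member medians moved by less than the spread between libraries in all 113 alternatives, and the 34 member changes past the threshold kept their direction in all 581 and their call in 524. Without a fold minimum the counts of members called rose to 2 (BAT CR against control), 2 (BAT CREX against EX), 4 (BAT average) and 7 (SkM average). For SkM CREX against EX the count was 4 with DESeq2, 1 with at least 10 counts in every library and 4 with 1 fit over all groups, and that fit gave 0 for SkM CR against control. With each library left out in turn the counts ran from 0 to 1 (BAT CR against control), 0 to 2 (SkM CR against control), 0 to 6 (SkM CREX against EX) and 3 to 6 (tissue difference). Calls over all genes moved as well, for SkM CREX against EX from 343 of 13350 to 2570 of 13328. The replicate block brought BAT CR against control to 0 and SkM CREX against EX to 1. The labels do not say whether same-numbered libraries belong together. No comparison had every same-numbered pair above a correlation of 0.1, but 2 of 4 pairs were above it in BAT CREX against EX (up to 0.50). The same held for 2 of 4 pairs in BAT CREX against CR (up to 0.36) and in SkM EX against control (up to 0.18). It also held for 2 of 3 in SkM CR against control (up to 0.31) and 1 of 3 in SkM CREX against EX (0.21). A relation was thus neither shown nor excluded. The near-zero BAT ratios turned sign with single libraries left out, Psmb9 to Psmb6 (-0.079 to 0.048, positive without CR replicate 2, control replicate 2 or CREX replicate 3) and Psmb10 to Psmb7 (-0.045 to 0.023, positive without CR replicate 2, control replicate 1 or 3 or EX replicate 3). In SkM the Psmb8 ratio ran from -0.87 to -0.55 and the Psmb10 ratio from -0.46 to -0.24, the latter past the threshold without CR replicate 3 (-0.41) or CREX replicate 1 (-0.46). The cause was not tested. Low counts limit Psmb9 and Nlrc5 in SkM.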
